A study of Mus musculus with 17 samples.

Results

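This is an account of 32 genes of endoplasmic reticulum (ER) protein folding, the unfolded protein response and the integrated stress response in cultured mouse macrophages. The genes were taken by name from the 37620 gene identifiers of the deposited table, and all 32 were found. The rule uses no measured value, but the list was chosen with earlier results of these data known. They were grouped by role into 14 chaperones and folding enzymes, 6 sensors and regulators, 5 genes of ER-associated degradation and translocation, and 7 targets of the transcription factor ATF4.

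RNA sequencing had been done on 17 libraries of bone marrow-derived macrophages from C57BL/6J mice, grown from marrow over 7 days in 50 ng/ml macrophage colony-stimulating factor (M-CSF). The 4 groups were Smad3 wild-type control (n = 5), Smad3 wild-type given 5 ng/ml transforming growth factor beta 1 (TGF-β1) over 5 additional days (n = 4), control cells labelled Smad3-knockout (n = 5) and cells of that label given the same TGF-β1 treatment (n = 3). Smad3 is phosphorylated by the TGF-β receptor and then enters the nucleus to regulate transcription, and the study asked how it bears on the passage of macrophages to myofibroblast-like cells. The age of the mice, the number of animals, the nature of the knockout allele, how control cells were kept over those days and whether a library is 1 cell or many are not given in the sources used here, and no label names a culture or an animal.

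Proteins that enter the ER are folded there by chaperones of the Hsp70, Hsp90 and lectin families and by protein disulfide isomerases. When unfolded protein accumulates, the membrane sensors IRE1 (Ern1), PERK (Eif2ak3) and ATF6 respond: IRE1 splices Xbp1 RNA, ATF6 is cut to a transcription factor, and PERK phosphorylates the initiation factor eIF2α. That phosphorylation, which other kinases also place in response to amino acid shortage, viral RNA or haem deficiency, slows translation and raises translation of ATF4, which drives genes of amino acid supply and of the late, death-prone phase of the response. In macrophages, prolonged ER stress is known to contribute to cell death under cholesterol loading.

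XBP1 and ATF6 act on promoters through the ER stress response element, ERSE, whose published consensus is CCAAT, then 9 bases of any kind, then CCACG. The promoter of Hspa5, the gene of the chief ER chaperone BiP and the textbook target of this element, is shown because the chaperone genes varied together between libraries, as described further on. Sequences are RefSeq promoters on GRCm38.p6, a build other than the submitters', read along the gene strand, 5′ to 3′. Capitals mark the fixed letters of the match, which lies from base -65 to base -47 relative to the transcript start.
Hspa5, chr2:34771940-34772089, plus strand: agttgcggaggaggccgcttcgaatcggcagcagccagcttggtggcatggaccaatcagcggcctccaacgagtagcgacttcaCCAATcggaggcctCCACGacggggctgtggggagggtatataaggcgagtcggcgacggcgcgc

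An exact ERSE, on either strand, was present in 7 of the 12 chaperone and folding genes that had a promoter in the table (58.3%). It was also present in Syvn1, and so in 8 of the 29 members with a promoter. Of all 32851 mouse promoters of the same length, from 250 bases before to 50 bases after the start, 39 held it (0.119%). Atf6, Hyou1 and Manf had no entry. The windows below hold each match with 14 bases on either side and show the fixed letters in their context. Hsp90b1 held 2 matches, and a match on the opposite strand reads CGTGG first and ATTGG last.
Hsp90b1, chr10:86705624-86705670, minus strand: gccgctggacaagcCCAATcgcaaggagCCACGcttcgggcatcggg
Hsp90b1, chr10:86705519-86705565, minus strand: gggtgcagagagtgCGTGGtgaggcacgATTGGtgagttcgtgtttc
Calr, chr8:84847061-84847107, minus strand: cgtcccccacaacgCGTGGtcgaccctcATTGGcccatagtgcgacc
Canx, chr11:50325786-50325832, minus strand: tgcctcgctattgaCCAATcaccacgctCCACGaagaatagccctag
Pdia6, chr12:17266477-17266523, plus strand: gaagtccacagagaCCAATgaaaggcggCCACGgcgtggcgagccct
Creld2, chr15:88819506-88819552, plus strand: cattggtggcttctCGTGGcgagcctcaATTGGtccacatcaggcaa
Dnajc3, chr14:118937813-118937859, plus strand: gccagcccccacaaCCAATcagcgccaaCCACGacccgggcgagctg
Syvn1, chr19:6046518-6046564, plus strand: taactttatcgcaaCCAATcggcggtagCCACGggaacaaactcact

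The shorter element ERSE-II, ATTGG and CCACG with 1 base of any kind between them, was found in Herpud1 and Dnajb11 and in 12 of the 32851 promoters (0.0365%). The core of the ATF4 element, TGATGCAA, was found in Chac1, in Slc7a11 at 2 places and in Herpud1, against 0.895% of all promoters. The XBP1 element UPRE, TGACGTGG, was in none of the 29 member promoters and in 0.676% of all. No match of any of these motifs overlapped another in a member promoter. A match is a string of letters and not a measured binding site. The windows for Herpud1, Chac1 and the more distant match of Slc7a11 show the letters in capitals.
Herpud1, chr8:94386363-94386401, plus strand: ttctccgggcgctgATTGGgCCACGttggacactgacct
Chac1, chr2:119351035-119351070, plus strand: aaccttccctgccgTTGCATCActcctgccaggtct
Slc7a11, chr3:50443658-50443693, minus strand: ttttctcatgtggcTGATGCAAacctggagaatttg

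Levels are in TPM, the relative abundance of transcripts, a unit corrected for transcript length, so genes can be compared with each other. The libraries held 7269 to 10307 genes at 1 TPM or more. Their depth is unknown, because TPM does not retain it, and no counting interval can be given. Smad3 itself was low or at 0 in most libraries and did not follow the genotype labels throughout. In controls it was listed at 0, 0.01, 0, 15.38 and 11.54 TPM in wild type and at 0, 0.27, 1.93, 0 and 0 TPM in labelled knockout, so the higher values were wild type. With TGF-β1 it was listed at 0 in each of the 4 wild-type libraries and at 6.18, 0.01 and 22.26 TPM in the 3 labelled knockout libraries, so the higher values were labelled knockout. Every direction between genotypes below therefore rests on the labels. Of 10 macrophage markers, 7 were at 1 TPM or more in every library, while Fcgr1 was under 1 TPM in 1 library, C1qa in 6 and Mertk in 11. Their summed level was 9594 to 44598 TPM. The defining plasma cell and B cell genes Mzb1, Igkc, Cd79a and Tnfrsf17 were listed at 0 in every library. Jchain was at 22.5 TPM in labelled knockout TGF-β1 library 2 and Ighm at 22.56 TPM in labelled knockout control 2, and each was at 0.08 TPM or less elsewhere. Apart from these, Sdc1, which macrophages can also express, was the one gene of that list of 9 to exceed 1 TPM. The sum of the list lay at 0.29 to 51.5 TPM in wild-type controls, 0 to 0.11 in wild-type TGF-β1, 26.0 to 236 in labelled knockout controls and 20.9 to 36.8 in labelled knockout TGF-β1 libraries. The fibroblast genes Col1a1, Col3a1, Pdgfra, Dcn and Lum were also at 0 throughout. Other foreign markers were limited to single genes, of which S100a8 at 132 TPM in wild-type control 4 and Cd4 at 52.3 TPM in labelled knockout TGF-β1 library 3 were the highest. Their part in the results was not tested.

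All 32 members passed the filter of 1 TPM in at least 3 of the 17 libraries, and none passed the test for TGF-β1 or for genotype label. With limma over 12158 genes, 0 of the 32 members had a Benjamini-Hochberg adjusted p under 0.05 in TGF-β1 against control in wild type, where 0.181% of all genes were called. The same count was 0 in labelled knockout libraries (0.00823% of all genes called), for the difference between these 2 effects (0% of all genes), for labelled knockout against wild type in controls (0.148%) and for the same under TGF-β1 (0.156%). At an unadjusted p under 0.05 the members numbered 3, 1, 2, 3 and 2 in that order, of 32 each, against 9.97%, 5.93%, 4.68%, 5.82% and 5.25% of all genes. Detection was checked in simulated data with the spread of these libraries. The wild-type comparison recovered 12% of genes changed by 2 on the log2 scale and 48% of those changed by 4 (50 genes each). For genes as a whole, smaller changes were thus mostly not detectable. Recovery was not computed for the members, whose spread differed by role. The median within-group SD (log2) was 1.47 for all genes tested. It was 0.88 for chaperones, 1.14 for degradation genes, 1.42 for sensors and regulators and 1.88 for ATF4 targets. No label says that libraries came from separate cultures or animals, so the p-values reflect only how these libraries vary, which may be technical.

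**Figure D1:**
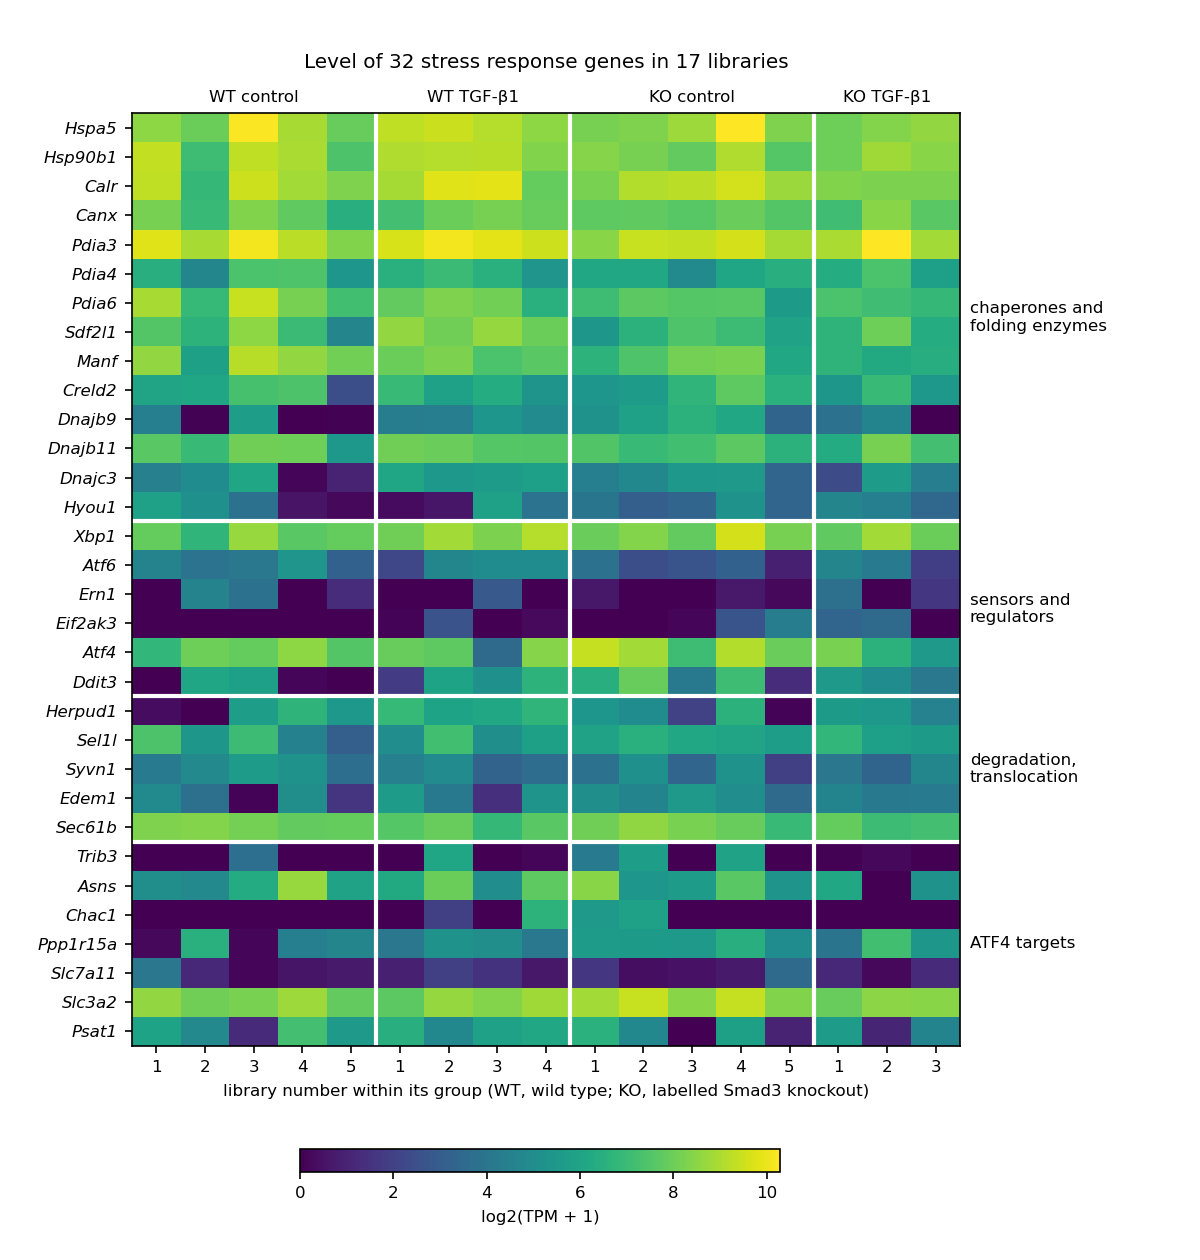
Level of each of the 32 genes (rows, by role) in each of the 17 libraries (columns, by group), as log2(TPM + 1) on the colour scale. The chaperone rows are bright in most libraries, the rows of Ern1, Eif2ak3, Trib3, Chac1 and Slc7a11 are dark in most, and differences within a group are as large as those between groups.

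Of the 14 chaperone and folding genes, 10 were at 10 TPM or more in every library. Hspa5, BiP, the ER Hsp70 that also holds the 3 sensors inactive, was at 374, 252, 1198, 496 and 238 TPM in wild-type controls 1 to 5 and at 621, 694, 559 and 367 TPM with TGF-β1. In labelled knockout libraries it was at 291, 309.9, 444, 1212 and 309 TPM in controls and at 255, 332 and 391 TPM with TGF-β1. The highest levels were in 2 control libraries of different genotype label, wild-type control 3 and labelled knockout control 4, and all groups overlapped. The log2 difference with TGF-β1 was 0.37 in wild type (95% interval -0.57 to 1.31; limma adjusted p = 0.847) and -0.43 in labelled knockout (-1.45 to 0.59; adjusted p = 0.968). The intervals include a 2-fold increase in wild type and a 2-fold decrease in labelled knockout. Without labelled knockout control 4 the latter value was -0.06, and with the cell cycle level of each library as a covariate it was 0.19.

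Hsp90b1, the ER Hsp90 known as GRP94, ran from 137 to 641 TPM with a median of 352. Calr, the soluble lectin chaperone calreticulin, ran from 113 to 923 TPM, and Canx, its membrane-bound relative calnexin, from 85.6 to 348 TPM. Pdia3, the disulfide isomerase that works with these 2 lectins, had the highest median of the 32 genes, 687 TPM, with a range of 319 to 1245. The other isomerases were lower: Pdia6, which also dampens IRE1, had a median of 190.3 TPM and Pdia4 of 80.4. None of these 6 genes separated any pair of groups that the design compares.

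Sdf2l1, a partner of the ER Hsp40 proteins that is strongly induced by ER stress in many cells, was at 185, 99.3, 367, 128 and 24.4 TPM in wild-type controls and at 396, 265, 399 and 254 TPM with TGF-β1. Wild-type control 3 lay inside the TGF-β1 range and the other 4 controls below it. The difference was 1.45 ± 0.61 on the log2 scale (SE; limma unadjusted p = 0.026, adjusted p = 0.440, not called), and 0.90 without wild-type control 5. In labelled knockout libraries it was at 42.2, 96.8, 176, 130.2 and 59.0 TPM in controls and 103, 259 and 81.5 TPM with TGF-β1, which overlapped.

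Manf, a secreted ER stress protein that protects cells and stabilises BiP complexes, was at 388, 56.1, 583, 388 and 273 TPM in wild-type controls and 251, 302, 163 and 202 TPM with TGF-β1. In labelled knockout controls it was at 99.3, 175, 283, 294 and 71.6 TPM, and with TGF-β1 at 103, 74.4 and 83.9 TPM. All 3 labelled knockout TGF-β1 libraries lay below all 4 wild-type TGF-β1 libraries, a difference of -1.36 ± 0.63 on the log2 scale (SE; limma unadjusted p = 0.043, adjusted p = 0.942, not called). Herpud1, described below, was the other member whose groups did not overlap there. These are 2 of 32 members lower without overlap, against 2.34% of all genes, and 0 of 32 higher, against 3.15%. No member separated the groups of the other 3 comparisons of 2 groups, in which 1.8% of all genes were higher and 0.987% lower with TGF-β1 in wild type, 3.05% and 1.84% with TGF-β1 in labelled knockout, and 0.683% and 0.378% in labelled knockout controls. Creld2, an ER protein with isomerase activity that shares its stress induction with Manf, ran from 4.61 TPM in wild-type control 5 to 210.0 TPM in labelled knockout control 4.

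The co-chaperones of BiP were less even. Dnajb11, an abundant Hsp40 of the ER, ran from 43.3 to 286 TPM. Dnajb9, known as ERdj4, which helps to return IRE1 to its inactive state, was at 21.0, 0.03, 52.0, 0 and 0.05 TPM in wild-type controls and at 19.1, 19.8, 41.4 and 30.0 TPM with TGF-β1. It was at 37.7, 58.3, 96.5, 71.0 and 8.91 TPM in labelled knockout controls and at 13.5, 23.7 and 0 TPM with TGF-β1. In 3 of 5 wild-type controls it was under 1 TPM, while every labelled knockout control was at 8.91 TPM or more. Its log2 differences were 2.71 ± 1.25 with TGF-β1 in wild type (SE; limma adjusted p = 0.490), 3.39 ± 1.18 between labelled knockout and wild-type controls (adjusted p = 0.663), and -5.33 ± 1.84 for the difference of the TGF-β1 effects (adjusted p = 0.997). The unadjusted p-values were 0.042, 0.0093 and 0.0091. None was called, the 3 estimates share the wild-type controls, and the size follows the pseudocount of 1 TPM: the last of them was -2.50 with a pseudocount of 10 and -8.23 with 0.1.

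Dnajc3, known as P58IPK, a co-chaperone also known as an inhibitor of eIF2α kinases, was at 21.1, 30.8, 65.0, 0.10 and 0.97 TPM in wild-type controls and at 64.8, 43.7, 49.4 and 55.1 TPM with TGF-β1. Wild-type control 3 lay above all of the treated libraries and 2 controls were under 1 TPM. The difference was 2.42 ± 1.05 on the log2 scale (SE; limma unadjusted p = 0.032, adjusted p = 0.455, not called). It was 1.05 when the libraries with many genes at 0 were left out. Hyou1, the ER Hsp110 that exchanges nucleotide on BiP, was under 1 TPM in 4 libraries, all wild type (controls 4 and 5, TGF-β1 libraries 1 and 2). It was at 7.73 to 37.45 TPM in every labelled knockout library, and its highest level, 58.8 TPM, was in wild-type TGF-β1 library 3, so all groups overlapped.

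**Figure D2:**
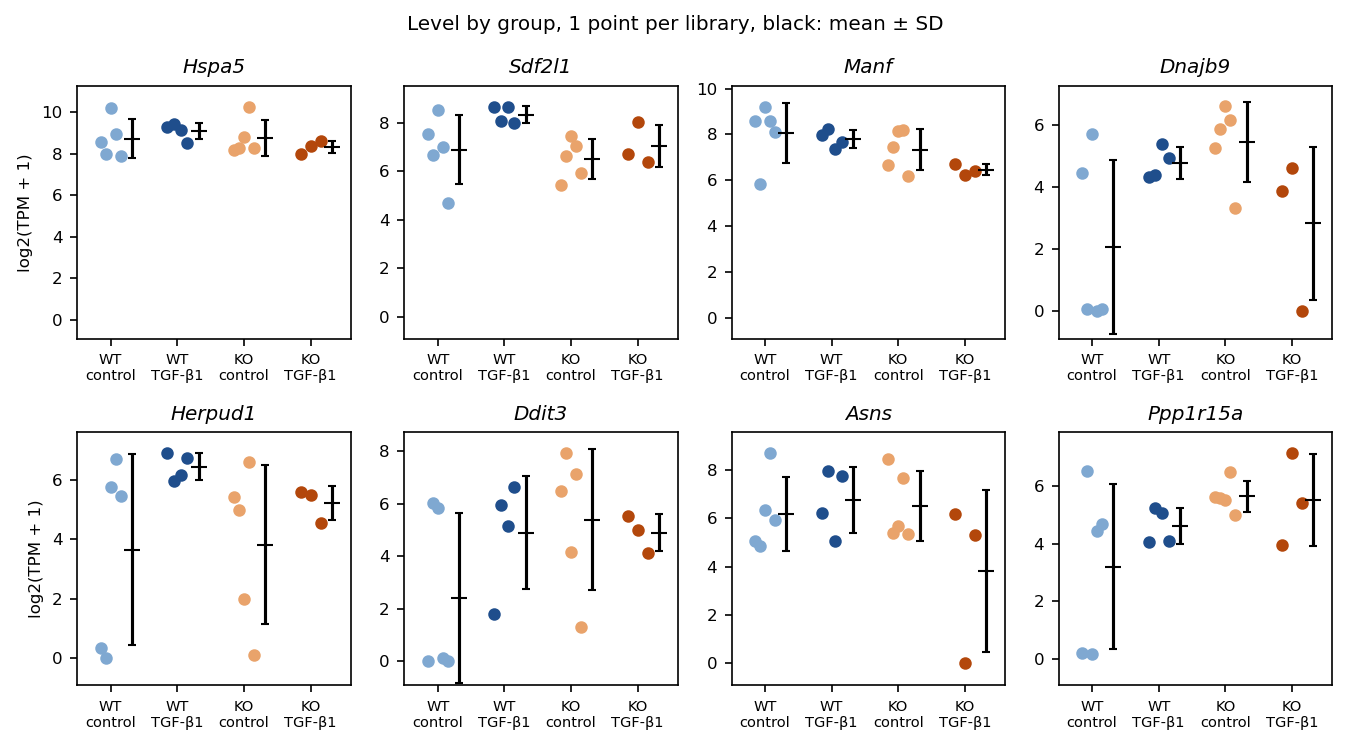
Level of 8 of the genes as log2(TPM + 1), 1 point per library, by group, with the mean and SD of each group in black. The groups that the design compares overlap for each gene shown except Herpud1 and Manf, for which the 3 labelled knockout TGF-β1 libraries lie below the 4 wild-type TGF-β1 libraries.

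Of the sensors and regulators, Xbp1 and Atf4 were abundant in nearly every library and the membrane sensors were low. Xbp1, the factor that IRE1 activates by splicing, was at 228, 104, 409.6, 200.5 and 229 TPM in wild-type controls and 266, 462, 305 and 558 TPM with TGF-β1. In labelled knockout libraries it was at 245, 327, 223, 789 and 288 TPM in controls and at 215, 462 and 251 TPM with TGF-β1. Wild-type control 3 lay within the TGF-β1 range and the other 4 wild-type controls below it, and the labelled knockout groups overlapped. TPM per gene does not show whether Xbp1 was spliced. Atf6 ran from 0.89 to 40.2 TPM. Ern1 was under 1 TPM in 11 of the 17 libraries and at most 23.3 TPM, and Eif2ak3 under 1 TPM in 12 and at most 19.3 TPM.

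Atf4 is controlled in large part by translation, which these data do not measure. Its RNA was at 112, 260.3, 231, 368 and 184 TPM in wild-type controls and 236, 210.1, 10.8 and 337 TPM with TGF-β1. It was at 656, 469, 135, 553 and 243 TPM in labelled knockout controls and 300.1, 96.3 and 45.8 TPM with TGF-β1. In both genotypes the groups overlapped, and wild-type TGF-β1 library 3 stood lowest. Ddit3, known as CHOP, the factor tied to cell death in prolonged stress, was at 0, 64.7, 55.6, 0.09 and 0 TPM in wild-type controls and at 2.47, 61.2, 34.6 and 98.3 TPM with TGF-β1. In labelled knockout controls it reached 87.4, 239.6, 17.03, 137 and 1.46 TPM, and with TGF-β1 44.9, 31.3 and 16.6 TPM. Ddit3 was thus at 0.09 TPM or less in 3 of 5 wild-type controls and above 1 TPM in all 12 libraries of the other groups. The difference between labelled knockout and wild-type controls was 2.99 ± 1.41 on the log2 scale (SE; limma unadjusted p = 0.047, adjusted p = 0.857, not called).

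Among the degradation genes, Herpud1, which brings together the retrotranslocation complex, was at 0.27, 0, 52.7, 103 and 43.3 TPM in wild-type controls and at 119, 61.7, 70.2 and 106 TPM with TGF-β1. It was at 41.9, 30.7, 2.96, 95.7 and 0.08 TPM in labelled knockout controls and at 47.7, 44.3 and 22.5 TPM with TGF-β1. Controls of both labels spread widely, whereas the treated libraries were all at 22.5 TPM or more. The ubiquitin ligase Syvn1, known as HRD1, ran from 2.81 to 48.5 TPM and its partner Sel1l from 7.59 to 169 TPM. Edem1, a lectin that passes glycoproteins to degradation, ran from 0.08 to 51.1 TPM. Sec61b, a subunit of the translocation channel, had the smallest ratio of highest to lowest level of the 5, with levels between 115 and 378 TPM.

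The ATF4 targets divided into abundant and sparse genes. Slc3a2, the heavy chain shared by several amino acid transporters, was between 208 and 693 TPM in all libraries. Its partner in cystine uptake, Slc7a11, was under 1 TPM in 9 of 17 libraries and at most 15.8 TPM. Psat1, an enzyme of serine synthesis, ran from 0 to 148 TPM. Asns, asparagine synthetase, was at 32.5, 28.0, 79.9, 410.1 and 59.5 TPM in wild-type controls and at 73.9, 251, 32.05 and 214 TPM with TGF-β1. It was at 350.2, 41.3, 49.6, 202 and 39.5 TPM in labelled knockout controls, and at 71.0, 0 and 38.2 TPM with TGF-β1. The value listed at 0 belongs to labelled knockout TGF-β1 library 2. With it the log2 difference from labelled knockout controls was -2.68 ± 1.18 (SE; limma unadjusted p = 0.034, adjusted p = 0.794), and without it -0.77. The difference from wild-type TGF-β1 libraries was -2.93 ± 1.23 with it (unadjusted p = 0.028, adjusted p = 0.875) and -1.02 without it.

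Ppp1r15a, known as GADD34, which directs the dephosphorylation of eIF2α, was at 0.17, 91.5, 0.13, 20.7 and 24.5 TPM in wild-type controls and 48.5, 47.5, 45.3, 88.6 and 31.1 TPM in labelled knockout controls. Wild-type control 2 stood above all labelled knockout controls and the other 4 below them (log2 difference 2.44 ± 1.02, SE; limma unadjusted p = 0.027, adjusted p = 0.790, not called). With TGF-β1 it was at 15.8, 37.1, 32.5 and 16.3 TPM in wild type and at 14.6, 141 and 42.2 TPM in labelled knockout libraries, which overlapped.

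The most stress-restricted targets were present in few libraries. Trib3, a pseudokinase induced by ATF4 and CHOP, was listed at 0 in 9 of 17 libraries. It exceeded 10 TPM in 5: wild-type control 3 (12.5), wild-type TGF-β1 library 2 (65.2) and labelled knockout controls 1, 2 and 4 (18.6, 52.6 and 59.0). Chac1, an enzyme that breaks down glutathione, was listed at 0 in 13 libraries, among them every wild-type control and every labelled knockout TGF-β1 library. It was at 2.91 and 98.4 TPM in wild-type TGF-β1 libraries 2 and 4 and at 45.5 and 57.7 TPM in labelled knockout controls 1 and 2. No fold is given for Chac1 because the groups it would be set against are at 0. On the log2(TPM + 1) scale the difference of its TGF-β1 effects, labelled knockout minus wild type, was -4.43 ± 1.99 (SE; limma unadjusted p = 0.037, adjusted p = 0.997, not called), and -2.94 without wild-type TGF-β1 library 4. Ddit3, Trib3 and Chac1 were all at 10 TPM or more in labelled knockout controls 1 and 2 only. They were at that level 2 of 3 together in wild-type control 3, wild-type TGF-β1 libraries 2 and 4 and labelled knockout control 4. These libraries belong to 3 of the 4 groups.

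As a list, the members lay above 0 with TGF-β1 in wild type and near 0 in labelled knockout, without any gene passing the test. In wild type 23 of 32 were positive, with a median log2 difference of 0.51 where the median of all genes tested was 0.09 and 53.8% were positive. In labelled knockout libraries 13 of 32 were positive and the median was -0.16, beside 0.07 over all genes, of which 53.1% were positive. For the difference of the effects, 8 of 32 were positive and the median was -0.70, beside -0.04 over all genes, of which 48.7% were positive. By role, the median differences in wild type and in labelled knockout were 0.44 and 0.0075 for chaperones, 0.36 and 0.34 for sensors and regulators, 0.29 and -0.0048 for degradation genes, and 0.80 and -0.61 for ATF4 targets. All 7 ATF4 targets had a negative difference of effects, with a median of -1.55 that was -0.79 without wild-type control 3. The 17 tested ATF4 targets among the further pathway genes below had medians of 0.59 in wild type and 0.24 in labelled knockout. Their difference of effects was negative for 12 of 17, with a median of -0.64. The medians of sensors and of degradation genes, and that of chaperones in labelled knockout, changed sign under at least 1 alternative processing. In wild type, the median of the 7 member ATF4 targets was 0.17 without TGF-β1 library 2 and 0.36 with the cell cycle covariate described next. That of chaperones was 0.13 without control 5 and 0.18 without control 2. No test was made of these lists.

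These medians rested on few libraries. In wild type the members' median was 0.21 without control 5, 0.26 without control 2 and 0.25 without TGF-β1 library 2. In labelled knockout it was 0.03 without control 4. Of a list of 20 cell cycle genes, 18 had a positive difference with TGF-β1 in wild type and 19 in labelled knockout. Of all genes, 53.8% and 53.1% did. In both genotypes 0 of the 20 were called, where 0.181% and 0.00823% of all genes were. The mean log2(TPM + 1) of the list was 3.49 to 7.13 in wild-type controls and 6.93 to 7.78 in wild-type TGF-β1 libraries. It was 4.66 to 7.02 in labelled knockout controls and 7.12 to 7.69 in labelled knockout TGF-β1 libraries. With that mean as a covariate, the members' median was 0.95 in wild type and 0.30 in labelled knockout, and again 0 members were called. In labelled knockout the covariate did not overlap between control and treated libraries, so values adjusted for it extrapolate there. In wild type the ranges overlapped only in part.

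**Figure D3:**
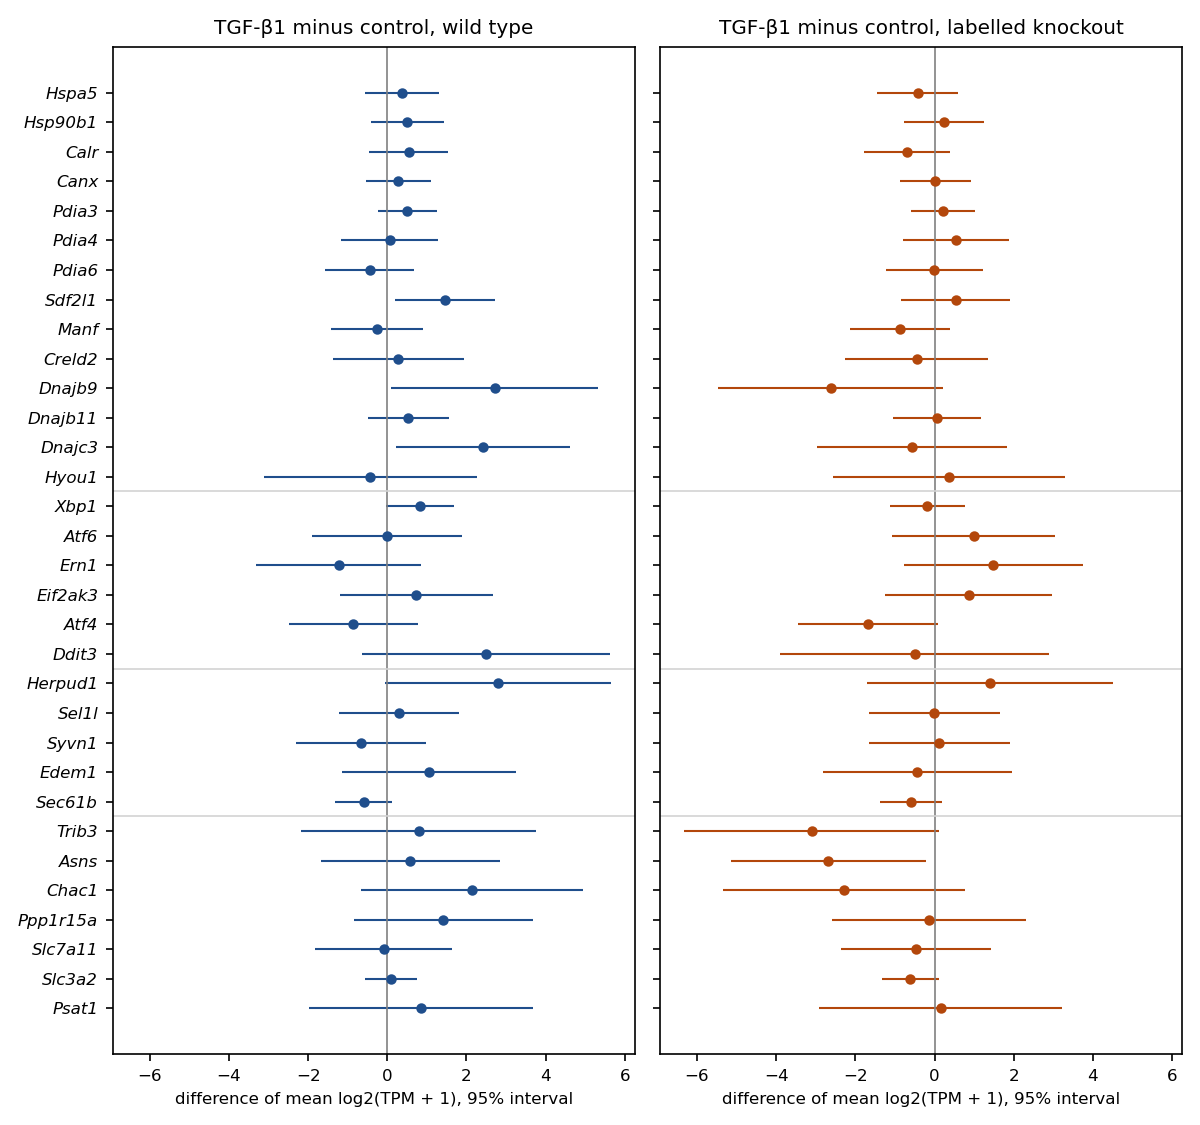
Difference of mean log2(TPM + 1), TGF-β1 minus control, for each of the 32 genes in wild type (left) and in libraries labelled knockout (right), with limma's 95% intervals, unadjusted for the number of genes. Most intervals include 0, and no gene had an adjusted p under 0.05 in either genotype.

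Between genotype labels, 20 of 32 members were higher in labelled knockout controls than in wild-type controls, with a median difference of 0.25. Of all genes 55.6% were higher, with a median of 0.11. Under TGF-β1, 8 of 32 members were higher, with a median of -0.40 beside 0.06 over all genes, of which 52.9% were higher. In controls the members' median changed sign, to -0.07, without wild-type control 5. Chaperones had medians of -0.01 in controls and -0.54 under TGF-β1, and ATF4 targets of 0.61 and -1.46. The last of these was -0.13 without wild-type TGF-β1 library 2. For the 17 other tested ATF4 targets the medians were -0.09 in controls and -0.39 under TGF-β1. The treated and control comparisons share libraries with those by treatment, so these values are not independent of them.

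The clearest pattern of these genes lay between libraries of the same group. Wild-type control 3 was among the 3 highest of 17 libraries for 11 of the 14 chaperone and folding genes. Wild-type control 5 was among the 3 lowest for 9 of them, and wild-type control 2 for 7. The summed level of the 14 genes ran from 1659 TPM in wild-type control 5 to 6338 TPM in wild-type control 3. The group means of that sum were 3532 ± 1970 TPM (SD, n = 5) in wild-type controls, 4069 ± 922 (n = 4) with TGF-β1, 3010 ± 1117 (n = 5) in labelled knockout controls and 2722 ± 955 (n = 3) with TGF-β1, so the range within wild-type controls was wider than any difference of means. In such libraries, fewer cells that express a gene and less RNA of it per cell cannot be told apart.

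The chaperone genes went up and down together from library to library. After each library's deviation from its group mean was taken, the median Spearman rho over the 91 pairs of the 14 genes was 0.53 across the 17 libraries, and 87 pairs were positive. Over all pairs of the 12158 genes tested it was 0.02, with 3.52% of pairs at 0.5 or more where the chaperone pairs had 58.2%. Over pairs of the 1630 genes with a mean of at least 100 TPM it was also 0.02, with 4.24% at 0.5 or more. The highest median rho with the other chaperone genes was that of Pdia3, 0.67, and the lowest that of Hyou1, 0.19. Within the 4 groups taken alone, of 3 to 5 libraries each, the median of the pairs was between 0.40 and 0.70. At that size rho takes few values, and no baseline over all genes was computed. With all groups, the chaperone median was 0.41 without wild-type control 3 and labelled knockout control 4. It was 0.44 to 0.57 when any single library was left out, and 0.42 with the cell cycle mean as a covariate. Without the 6 libraries with many genes at 0 it was 0.47. This measure was chosen after seeing the data and has no p-value. The points share libraries, preparation and the fixed TPM total.

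The other roles did not share this pattern to the same degree, but their genes were less evenly detected. In every library, 10 of 14 chaperones were at 10 TPM or more. The same held for 1 of 7 ATF4 targets, 1 of 5 degradation genes and 2 of 6 sensors and regulators. Ties at 0 limit the rho that genes can show, and the part of this in the difference was not tested. The median rho was -0.06 between chaperones and ATF4 targets (98 pairs), 0.06 between chaperones and sensors (84 pairs) and 0.16 between chaperones and degradation genes (70 pairs). Among themselves, ATF4 targets had a median rho of 0.20 (21 pairs), degradation genes 0.23 (10 pairs) and sensors and regulators 0.14 (15 pairs). Atf4 had a median rho of -0.12 with the chaperones and 0.33 with the ATF4 targets, while Xbp1 had 0.34 with the chaperones and 0.06 with the ATF4 targets. The median rho between chaperones and the cell cycle genes was -0.28 (280 pairs). The cell cycle genes had 0.23 among themselves (190 pairs), with 33.7% of pairs at 0.5 or more. Chaperone genes with an exact ERSE in the promoters shown above had a median rho of 0.53 among themselves (7 genes), those with a promoter but no exact ERSE 0.63 (5 genes), and pairs across the 2 sets 0.62. This difference was not tested.

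**Figure D4:**
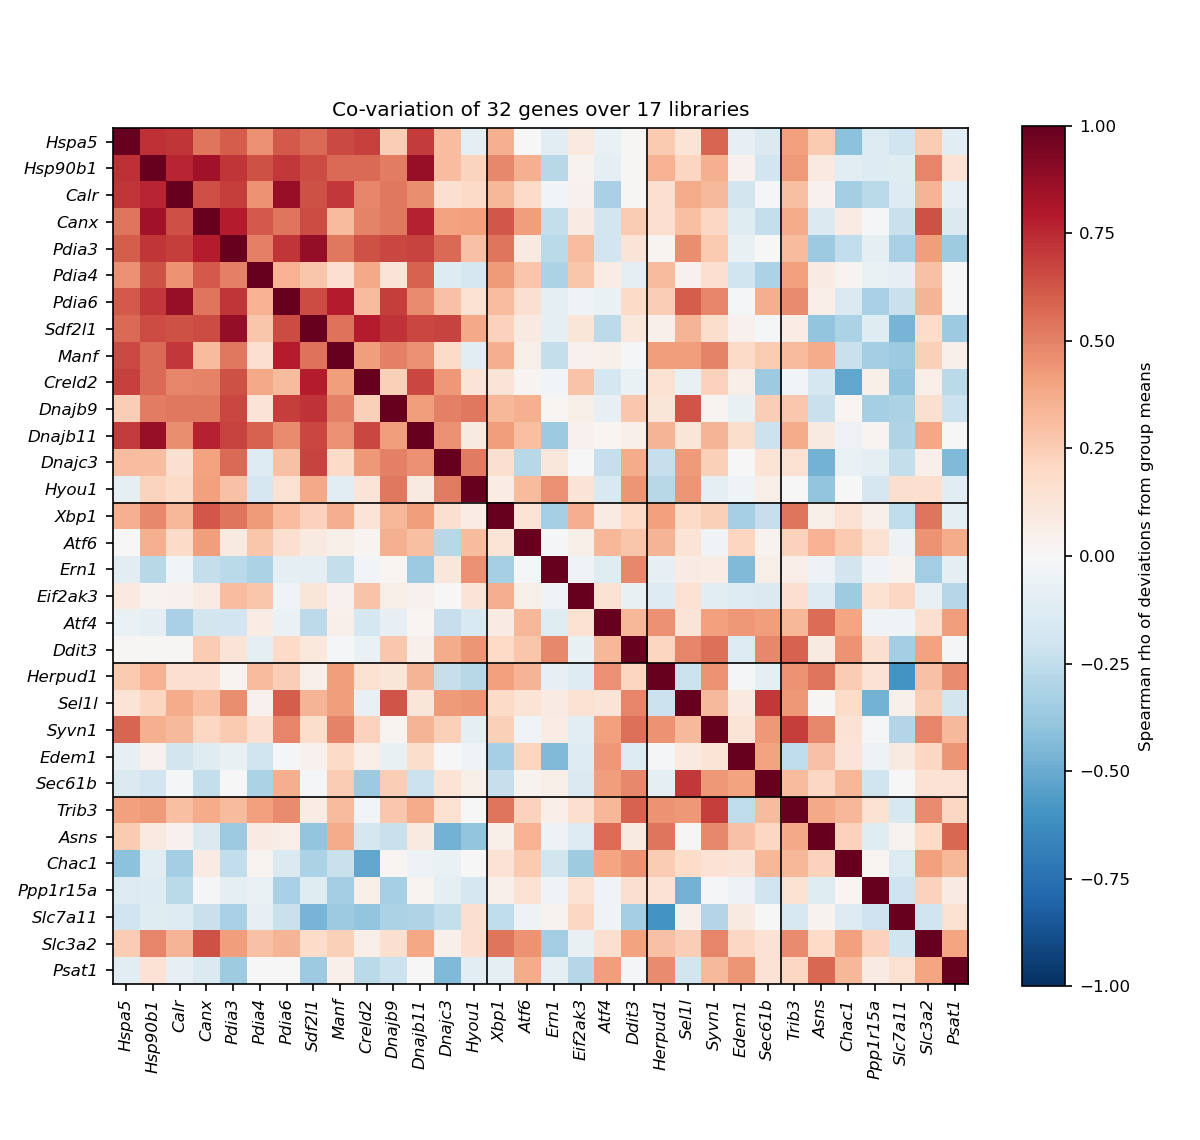
Spearman rho between each pair of the 32 genes over 17 libraries, computed on log2(TPM + 1) after subtracting group means; lines divide the 4 roles. The chaperone block at the upper left is mostly red, with 87 of its 91 pairs positive and the row of Hyou1 palest, with a median rho of 0.53, and the block of chaperones against ATF4 targets is mixed, with a median of -0.06.

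Another 75 genes of the same pathways were looked at for comparison, of which 68 passed the filter, and 0 of the 68 were called in any of the 5 comparisons. Of all genes, 0% to 0.181% were called in each. At an unadjusted p under 0.05 the 68 gave 5, 1, 0, 2 and 1 genes in the order above. The shares of all genes were 9.97%, 5.93%, 4.68%, 5.82% and 5.25%. The median log2 difference of the 68 with TGF-β1 was 0.25 in wild type, with 48 positive, and 0.11 in labelled knockout. Over all genes it was 0.09 in wild type, with 53.8% positive, and 0.07 in labelled knockout. P4hb, the main disulfide isomerase, was between 323 and 692 TPM in all libraries, and Ero1l (Ero1a), the oxidase that recharges it, between 0.01 and 101.9 TPM. Atf3, a stress-induced factor downstream of ATF4, was at 0.13 to 624 TPM. The regulators Atf5 (0.03 to 20.0 TPM), Cebpb (0 to 13.2) and Nupr1 (0.16 to 96.2) were lower. Ddit4, an inhibitor of mTORC1 signalling, did not exceed 1.30 TPM, and Slc7a5, a partner of Slc3a2, did not exceed 5.27 TPM. Phgdh, which starts serine synthesis, ran from 0.12 to 292 TPM.

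Sesn2 and Mthfd2, chosen after their values were seen, separated the wild-type groups. Sesn2 encodes sestrin 2, an ATF4 and p53 target that restrains mTORC1. It was at 0, 0, 12.7, 0 and 1.92 TPM in wild-type controls and at 30.2, 15.6, 19.6 and 35.3 TPM with TGF-β1 (log2 difference 3.58 ± 1.19, SE; limma unadjusted p = 0.0072, adjusted p = 0.300, not called). Mthfd2, a mitochondrial enzyme of folate metabolism, was at 20.4, 15.9, 16.6, 44.6 and 97.0 TPM in wild-type controls and 134.9, 207, 108 and 137 TPM with TGF-β1 (log2 difference 2.22 ± 0.78, SE; limma unadjusted p = 0.010, adjusted p = 0.325, not called; 1.16 with the cell cycle mean as a covariate). With TGF-β1 the labelled knockout libraries lay below these, at 13.8, 10.1 and 0 TPM for Sesn2 and at 56.6, 63.1 and 61.1 TPM for Mthfd2. In labelled knockout the TGF-β1 and control libraries overlapped for both genes. For the difference of the TGF-β1 effects, 0 of the 68 genes had an unadjusted p under 0.05 (limma), against 4.68% of all genes. The smallest was 0.097. In all, 4 of the 68 genes were higher without overlap in wild type with TGF-β1, against 1.8% of all genes, the others being Ssr1, a subunit of the translocon-associated complex, and Fkbp2, an ER prolyl isomerase. Under TGF-β1, 4 of the 68 were lower without overlap in labelled knockout than in wild type, against 2.34% of all genes, and 1, Nupr1, was higher, against 3.15%. In wild type 0 of the 68 were lower with TGF-β1, against 0.987% of all genes.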

How the data were processed

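TPM values were deposited by the authors as 1 table of 37620 mouse gene identifiers in 17 libraries of M-CSF-grown macrophages; per the labels' protocols, cDNA was made by SMART-seq2 from total RNA. Per the submitters' processing notes, FastQC, Trim Galore and RSEM were used with build mm9; no versions or settings are given there. Depth cannot be read from TPM, and RSEM shares reads among near-identical transcripts. Symbols came from GENCODE vM21 (32897 identifiers matched), used for names only. No column of values was left unused.

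Groups were taken from the titles, since every sample carries an identical treatment text. The design text's sort by smooth muscle actin cannot be assigned to libraries and was not analysed here. Values were taken as log2(TPM + 1), which understates changes of low genes. The 12158 genes that reached 1 TPM in 3 or more libraries were fitted with limma 3.58.1 in R 4.3.3 (lmFit, eBayes with a trend), once over the 4 groups with 13 residual degrees of freedom, and a gene was called where the p adjusted by Benjamini-Hochberg was under 0.05. The step was tested on simulated data. The 12 abundant genes looked at in all libraries, picked after seeing the data, were at 71.7 TPM or more, which does not show whether a 0 elsewhere is a failed estimate.

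The members and lists were chosen with earlier results of these data known. By a rule written with the lists, the 32 members are named whatever their change, as are other pathway genes that were called, Atf3, Atf5, Cebpb, Nupr1, P4hb, Ddit4, Phgdh, Slc7a5 and Ero1a, and Smad3. Genes whose fitted difference is printed had an unadjusted p under 0.05, apart from Hspa5, and were picked after seeing the values, as was the co-variation measure (Spearman rho of deviations from group means). RefSeq promoters on GRCm38.p6 were matched by symbol for 29 of 32 members and searched for 4 motifs on both strands. A planned search of protein C-termini was not run, since protein sequences were not used here. Alternatives changed the pseudocount, filter, scaling, trend, covariates, groups fitted and libraries included.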

Additional observations from a re-analysis of the deposited data

Results flagged for a closer look

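In groups of 4 or 5 libraries, a library was noted where its gap to its nearest neighbour took up more of the group's range of log2(TPM + 1) than Dixon's 95% critical value allows. This held for 12 of the 95 sets looked at, of which 6 lay high and 6 low. Chance gives about 5% for normally distributed values. A single value above 0 among values of 0 is always flagged, so the count cannot be compared with that share. Among the chaperones, Hsp90b1 was low in wild-type TGF-β1 library 4 (323 TPM), Pdia4 in labelled knockout control 3 (28.57 TPM), Pdia6 in labelled knockout control 5 (47.72 TPM) and Creld2 in wild-type control 5 (4.61 TPM). Among the sensors and regulators, Atf6 was low in wild-type TGF-β1 library 1 (3.58 TPM) and Atf4 in wild-type TGF-β1 library 3 (10.83 TPM). Ern1 was high in that same library 3 (6.39 TPM). Eif2ak3 was high in wild-type TGF-β1 library 2 (5.17 TPM) and, at a level of 0.02 TPM among values of 0, in wild-type control 2. Among the ATF4 targets, Trib3 was high in wild-type control 3 (12.49 TPM) and in wild-type TGF-β1 library 2 (65.18 TPM), and Slc7a11 in wild-type control 1 (15.83 TPM).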

How the results depend on the processing

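No member was called in any of 144 recomputed counts, where the smallest adjusted p of a member was 0.164 (limma, Sdf2l1 in wild type). Over the results and alternatives computed, 1625 values were counted as the same, 44 as moved and 1 as reversed. Single genes were the same if they kept their direction and side of the threshold, and counts if they changed little. List medians were the same within the spread between libraries, whatever their sign, and the median rho within the spread between gene pairs. Reversal was scored for single genes only, and the 1 was Hspa5 in labelled knockout, 0.19 with the cell cycle mean as a covariate. In labelled knockout that covariate did not overlap between control and treated libraries. List medians did change sign, that of chaperones between genotype labels in controls in 9 of 29 alternatives. The median rho of the chaperones stayed between 0.40 and 0.70, both ends coming from single groups, of 4 and 5 libraries. What moved were the counts over all genes. For TGF-β1 in wild type (22 genes) they were 6 with no filter on low values and 5 with only the compared groups fitted. They were 3 without the 6 libraries with over 10% of moderately expressed genes (10 to 50 TPM) at 0. When each library was left out they were 14 to 34. The 34 came without wild-type TGF-β1 library 3 or labelled knockout TGF-β1 library 2, and the 14 without wild-type TGF-β1 library 4. For TGF-β1 in labelled knockout (1 gene) they were 0 with a pseudocount of 0.1, a filter of 5 TPM, only the compared groups, either covariate or without those 6 libraries, 4 with a pseudocount of 10, 5 with no filter and 6 with quantile normalization, and 0 to 10 when each library was left out. For the difference of effects (0 genes) they were 1 with no filter and 1 with the cell cycle covariate, and 0 to 1 when each library was left out. For labelled knockout against wild type they were in controls (18 genes) 29 without a trend and 6 without those 6 libraries, and 16 to 23 on leaving out each library. Under TGF-β1 (19 genes) they were 3 with only the compared groups and 7 without those 6 libraries, and 12 to 21 on leaving out each library, with 12 without wild-type TGF-β1 library 2. The cause was not tested. The median of ATF4 targets in labelled knockout was -2.53 with the cell cycle covariate.

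The labels number the replicates in every group, and no resemblance of same-numbered libraries was seen. The correlation of deviations was at most 0.0213 over 22 same-numbered pairs, with a median of -0.0103 against 0.0018 for other pairs. In all, 0 libraries correlated best with their own number. Such values cannot show whether equal numbers share a culture or an animal. With the replicate block, the counts over all genes were 11 in wild type with TGF-β1, 0 in labelled knockout, and 10 for labelled knockout against wild type under TGF-β1, and 0 members were called.

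Unknown depth, groups of 3 to 5 libraries and many values at 0 limit these results. The 6 libraries with over 10% of genes at 0 leave 2, 3, 4 and 2 libraries in the groups when removed, and a value of 0 in a deposited TPM table does not show that a gene was silent. Fitted differences of genes near 0 follow the pseudocount.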
